A study of Mus musculus
Mus spretus with 18 samples.

Results

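The adhesion molecules neurexin 2 and 3 (Nrxn2, Nrxn3) and neuroligin 1 and 2 (Nlgn1, Nlgn2), and the active zone scaffolds Piccolo (Pclo), Bassoon (Bsn), Rims1 and Rims2, were followed across the tissues of F1 hybrid mice. The 8 genes were chosen by name, as every skipped exon event listed under these symbols and every row of the expression table that carries them. In cortex they held 107 of 41524 listed events, 104 of which had 20 or more reads in both replicates, and these 104 described 57 exons. Over all tissues they held 115 events in 64 exons.

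All animals and cells carried the same F1 genotype, from a C57BL/6J mother and a SPRET/EiJ father, so each nucleus held 1 allele of each species and no group was free of either. Cerebral cortex, heart, kidney, lung, spleen and liver came from female animals of 8 weeks, with 2 libraries per organ, and embryonic stem cells (ESC) with 2 libraries from 2 distinct clones. The liver libraries were made in an earlier study of the same animals, and their labels give the maternal strain as C57BL/7J and C57BL/8J. F1 fibroblasts (2 libraries with DMSO and 2 with 0.1 μM of the splicing inhibitor Pladienolide B, each for 4 h) entered as expression levels only. The organs came from the same 2 animals, but the sources used here do not state that a replicate number marks the same animal in each organ. P-values for TPM rest on the spread between these libraries, moderated over all genes. Those for splicing rest on read counts and on a spread between these libraries, moderated toward a prior over all tested events. In bulk tissue, fewer cells of a type and less RNA per cell cannot be told apart.

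Neurexins sit in the presynaptic membrane and bind neuroligins, which sit on the postsynaptic side, and both are spliced at a few fixed positions that are known to change which partners they bind. Rims1, Rims2, Piccolo and Bassoon are large proteins of the presynaptic active zone, the site where synaptic vesicles fuse. Rims proteins bind Rab3 and calcium channels, and Piccolo and Bassoon organise the vesicle cluster. Several of the alternative exons of these genes are very short, and such micro-exons are known to be included mainly in neurons.

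Junction reads over all listed events ranged from 46558287 to 129496306 per library, and reads assigned to 1 allele from 10338947 to 46793808. All 7 neuronal markers were above 1 TPM in both cortex libraries, with a summed level of 3255 to 3598 TPM, and all 3 pluripotency markers in ESC, at 2554 to 2743 TPM. Some markers also appeared outside their own tissue. Heart muscle markers summed to 760 to 949 TPM in lung, against 47139 to 47955 TPM in heart. The lung marker Scgb1a1 had 74.4 to 106 TPM in spleen. The hepatocyte marker Ttr had 1223 to 1422 TPM in cortex, and the neuronal marker Slc17a7 had 37.0 to 49.8 TPM in heart. Maternally expressed Meg3 gave 98.97% of its allelic junction reads to the C57BL/6J column in cortex, and paternally expressed Snrpn gave 0.0620%. In ESC the same genes stood at 34.7% and 50.2%.

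All 8 genes were expressed above every other tissue in cortex. In TPM, a level per transcript length and library size, Nlgn2, the neuroligin of inhibitory synapses, was the highest at 147 and 167 TPM in the 2 cortex libraries. Rims1 followed with 98.6 and 105 TPM, Bsn with 91.9 and 104 TPM, Nrxn3 with 75.4 and 81.1 TPM, and Nrxn2 with 70.0 and 85.4 TPM. The ranges of Rims1 and Bsn overlapped, as did those of Nrxn3 and Nrxn2. Within each library Rims1 was above Bsn, while the order of Nrxn3 and Nrxn2 changed between libraries. These differences between neighbours were not tested. Rims2 had 56.9 and 57.7 TPM and Nlgn1 52.1 and 54.4 TPM. Pclo is listed under 2 gene identifiers, ENSMUSG00000061601 with 57.8 and 61.6 TPM and ENSMUSG00000098239 with 49.4 and 47.7 TPM. Reads of these identifiers could be split between them by the counting, so their single levels are uncertain.

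Outside cortex the genes separated. Nlgn2 was present in every tissue, with 33.6 and 33.5 TPM in lung, 11.4 and 9.75 TPM in spleen, 8.37 and 8.30 TPM in ESC, 7.42 and 6.78 TPM in heart, 5.27 and 5.81 TPM in kidney and 0.942 and 0.968 TPM in liver. It also reached 23.1 and 20.6 TPM in DMSO fibroblasts and 14 and 13.7 TPM after Pladienolide B, the 2 treated libraries lying below both controls, a comparison that was not tested. Nrxn2 had 2.69 and 2.65 TPM in lung and stayed under 1 TPM in the 10 remaining libraries outside cortex. Nrxn3 and Nlgn1 were under 1 TPM in all libraries outside cortex.

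The next highest tissue was ESC for Rims1 and Rims2, kidney for Pclo and spleen for Bsn. Rims2 reached 14.1 and 8.29 TPM in ESC and 1.41 and 1.92 TPM in kidney. Rims1 reached 2.35 and 5.66 TPM in ESC, with a gap between the 2 clones that exceeded its level in any organ other than cortex. Pclo (ENSMUSG00000061601) had 2.18 and 1.95 TPM in kidney, and Bsn was highest in spleen at 0.566 and 0.728 TPM. In kidney, all 7 neuronal markers were below 1 TPM, while Th, a marker of peripheral neurons, ran from 0.0669 to 12.9 TPM between the libraries. In ESC, 2 of 7 were above it in both libraries, with Tubb3 the larger at 35.2 to 52.0 TPM; the part of neuronal cells in these levels was not tested.

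**Figure D1:**
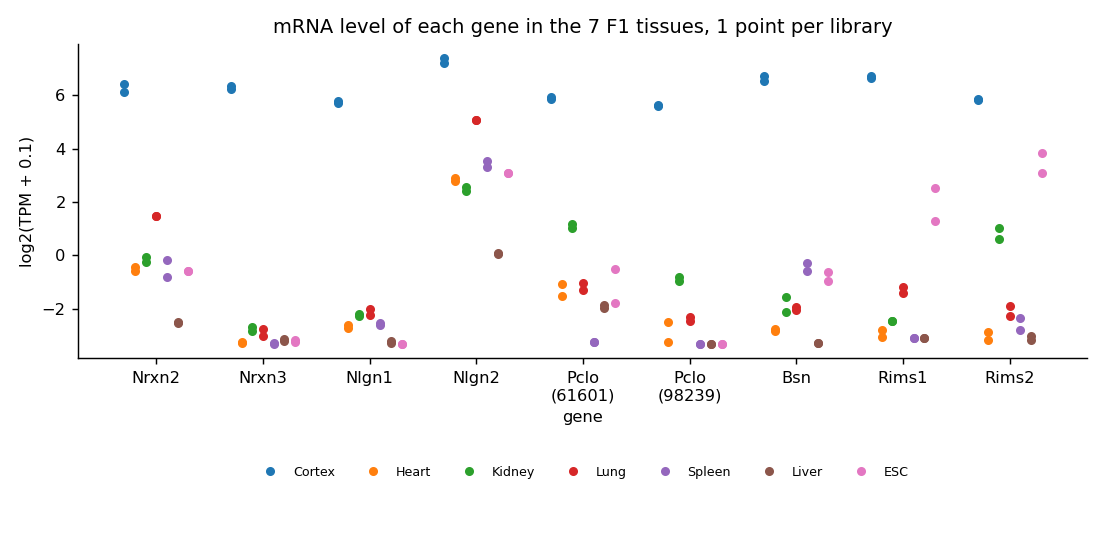
Level of each gene as log2(TPM + 0.1) in 14 libraries of 7 tissues, 1 point per library, with Pclo drawn under its 2 gene identifiers. Cortex (blue) lies above all other tissues for every gene, Nlgn2 is above 5 TPM in 5 of the 6 others, and Rims2 and Rims1 are next highest in ESC.

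Cortex was compared with the mean of the 6 other tissues by limma on log2(TPM + 0.1), with Benjamini-Hochberg adjustment over 21925 genes. All 9 gene identifiers of the 8 genes were called higher in cortex (adjusted p below the threshold of 0.05 and a log2 difference of at least 1), where 35.4% of all genes tested were, and 0 were called lower, where 20.2% of all genes were. The log2 differences ranged from 4.46 ± 0.09 (SE) for Nlgn2 (adjusted p = 5.49e-11) to 9.39 ± 0.11 for Nrxn3 (adjusted p = 7.21e-12), on a scale that understates the change of low genes. The test keeps genes of at least 1 TPM in 2 libraries. Nrxn3, Nlgn1, Bsn and the second Pclo identifier reached this in cortex alone, so they could not have been called lower, and their calls are a description. The other 5 identifiers had 1 TPM or more in 2 to 10 libraries outside cortex. The median of the 9 was 8.29, against 0.38 over all genes. Rescaling each library by median ratios moved the median of all genes to 0.03 and left the difference of Nlgn2 at 4.09 and that of Nrxn3 at 9.08.

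Among other genes of the active zone and of vesicle release, 22 of 23 were called higher in cortex and 0 lower, under the same filter. Of all genes tested, 35.4% were called higher and 20.2% lower. The median log2 difference of the list was 6.57. The exception was Ppfia1, a liprin found in many tissues, at −0.05 (adjusted p = 0.54). All 12 genes of a postsynaptic list were called higher, with a median of 6.79, from Gphn, the inhibitory scaffold gephyrin, at 1.68 to Dlgap1, a scaffold of excitatory synapses, at 8.13. Both lists held genes, such as Snap25 and Lrrtm4, that passed the filter of 1 TPM in cortex alone. Such genes could not have been called lower, and their calls are a description. By likeness over the 14 tissue libraries, Nrxn3 was nearest to B230208B08Rik, Trhr and Cntnap5c (Pearson r of 0.999 for each), but 225 genes reached an r of 0.99 with it. Nrxn2, present in lung too, was nearest to 9330101J02Rik at 0.989, Nlgn2 to Grin2d at 0.993, Rims1 to Trim9 at 0.994, Rims2 to Gm15525 at 0.9904, Bsn to Ppp3r1 at 0.992 and Nlgn1 to Lmo3 at 0.998. Pclo was nearest to Grin3a at 0.983 by its first identifier and to Unc13c at 0.997 by its second. These r values are over libraries that share tissues and describe likeness only.

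Splicing was measured as percent spliced in (PSI), here given as a fraction from 0 to 1, from reads over the junctions of an exon divided by the effective length of each form. The tables list an exon only where at least 1 read skipped it. Where several events describe 1 exon, the event with the most cortex reads stands for it. Of the 57 exons in cortex, 36 (63.2%) had a mean PSI above 0.9, 17 (29.8%) lay from 0.1 to 0.9, and 4 (7.02%) below 0.1. Over all 32033 autosomal exons with the same read minimum the shares were 80.6%, 13.4% and 5.99%.

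Most exons with an intermediate PSI had a length that keeps the reading frame. Of the 17 exons with intermediate PSI, 15 had a length that is a multiple of 3 (88.2%, against 52.0% of 4294 such exons in cortex), and 5 were of 30 bp or less (29.4% against 7.01%). Among the 36 exons above 0.9 the share of multiples of 3 was 41.7%, against 40.0% over all exons. Neighbouring exons of 1 gene share reads and history, and overlapping forms such as the 72-bp and 69-bp forms of Nrxn2 count as separate exons. These shares therefore describe the genes and carry no test. Intermediate exons were found in Nrxn2 (7 of 12), Nrxn3 (4 of 10), Rims1 (4 of 11) and Rims2 (2 of 7), and in none of the 12 exons of Pclo, 2 of Bsn, 2 of Nlgn2 and 1 of Nlgn1.

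**Figure D2:**
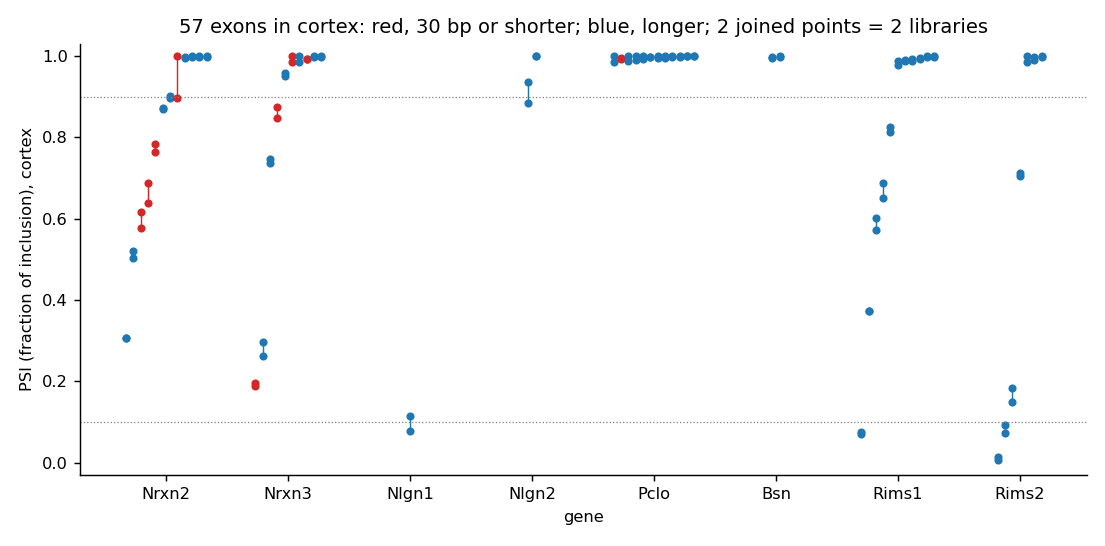
PSI of the 57 exons in cortex by gene, ordered by mean PSI within each gene. Joined points are the 2 libraries, red marks exons of 30 bp or shorter, and dotted lines stand at 0.1 and 0.9. Exons of Nrxn2 and Nrxn3 reach down to a mean of 0.307 and 0.193, those of Rims1 and Rims2 to below 0.1, while all exons of Pclo and Bsn lie near 1.

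In Nrxn2 (chromosome 19, 6418756 to 6533217 on the plus strand of mm10), the 90-bp exon at 6513716 to 6513805, known as splice site 4 and as the main switch of neuroligin binding, was included in about as many transcripts as it was skipped, with PSI of 0.520 and 0.504 from 4693 and 5357 reads. The corresponding 90-bp exon of Nrxn3 (chromosome 12, 90199147 to 90199236) was included more often, at 0.747 and 0.738 from 1847 and 1921 reads. The 2 libraries of each gene lay closer to each other than to those of the other gene. The difference between the genes was not tested.

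At splice site 2 of Nrxn2, exons of 24 bp (6463824 to 6463847) and 45 bp (6463824 to 6463868) start at the same base and end apart. Against skipping, the 24-bp form had PSI of 0.578 and 0.616 and the 45-bp form 0.307 and 0.307, the skipping reads being shared by both. Further upstream, a 30-bp exon (6448255 to 6448284) had 0.783 and 0.764, and the 72-bp and 69-bp forms that start 3 bp apart (6450528 and 6450531, both ending at 6450599) had 0.902 and 0.897, and 0.873 and 0.869. Both forms share their skipping reads and the junction at their common end. Neither value is therefore the share of transcripts with that form alone. A 27-bp exon (6488784 to 6488810) had 0.638 and 0.688. The other 5 exons of Nrxn2, among them an 18-bp exon with 0.897 and 1.00 from 105 and 177 reads, had a mean PSI above 0.9.

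Nrxn3 carried a 27-bp exon at 89354453 to 89354479 with PSI of 0.849 and 0.875 and another of the same length at 89517906 to 89517932 with 0.196 and 0.189, so exons of 1 length differed widely within 1 gene. Its 101-bp exon (88954811 to 88954911), whose length is not a multiple of 3, had 0.298 and 0.263. The remaining 6 exons lay above 0.9, the lowest being a 706-bp exon with 0.952 and 0.959.

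In the neuroligins, the alternative exons at splice site A stood at opposite ends. The 51-bp exon of Nlgn2 (chromosome 11, 69830563 to 69830613) was included at 0.937 and 0.885, and the 60-bp exon of Nlgn1 (chromosome 3, 25920178 to 25920237) at 0.113 and 0.0776, its mean of 0.0955 lying just under the lower limit of 0.1. The groups of libraries are far apart for these genes, but the exons are not of the same sequence and were not tested against each other.

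Rims1 (chromosome 1, 22285972 to 22806158, minus strand) held its intermediate exons in 2 stretches. In the first, given from low to high coordinate, the 183-bp exon (22398599 to 22398781) had PSI of 0.373 and 0.372 and the 72-bp exon (22404444 to 22404515) 0.572 and 0.602, while the 84-bp exon (22412211 to 22412294) next to them had 0.0699 and 0.0741. In the second, a 69-bp exon (22630412 to 22630480) had 0.687 and 0.652 and an 81-bp exon (22726930 to 22727010) 0.826 and 0.814.

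The PSI of an exon in the first stretch depended on the flanking exons of the event. The 63-bp exon (22425871 to 22425933) had 0.988 and 0.977 in the event whose low-coordinate flank is the adjacent 90-bp exon. It had 0.526 and 0.521 in the event whose low-coordinate flank is the exon with its high end at 22397563. The 90-bp exon itself (22421741 to 22421830) had 0.987 and 0.9903 in the event with the most reads, and 0.266 and 0.245 in the event whose flanks lie at 22397563 and 22427462. The junction between these 2 flanks alone, which skips all 5 exons in between, had 322 and 349 reads.

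In Rims2 (chromosome 15, 39198286 to 39684372), the 66-bp exon (39517806 to 39517871) had PSI of 0.714 and 0.706, the 242-bp exon (39616269 to 39616510) 0.184 and 0.148, the 101-bp exon (39566943 to 39567043) 0.0914 and 0.0734, and the 173-bp exon (39585590 to 39585762) 0.0139 and 0.00569. The last 3 lie in a row between the exons ending at 39535981 and starting at 39674940, and none has a length that is a multiple of 3. As in Rims1, the value depended on the flanks. With the 101-bp exon as its upstream neighbour the 173-bp exon had 0.776 and 0.706, and with the 173-bp exon as its upstream neighbour the 242-bp exon had 0.978 and 1.00.

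The 12 exons of Pclo ranged from a mean PSI of 0.993 to 1.00, and the 2 of Bsn stood at 0.997 and 0.999. Among those of Pclo was the 27-bp exon at chromosome 5, 14778539 to 14778565, known to change the calcium binding of a C2 domain, with PSI of 0.995 and 0.993.

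The members were testable in few other tissues, where the tissue contrast asks which exons are used differently when the gene is expressed elsewhere. PSI was tested with a quasi-binomial model whose dispersions were moderated by limma, and an exon was called at an adjusted p (Benjamini-Hochberg) under 0.05 with a difference of at least 0.1. Against heart and spleen, 0 of 2 exons each were called (13.8% and 14.8% of all events were), with 0 at an unadjusted p under 0.05. Against kidney 1 of 4 was called (14.3% of all events), against lung 1 of 3 (14%) and against ESC 2 of 8 (10.9%). Without ESC replicate 1, 6 exons were called against ESC, and without kidney replicate 2, 2 were called against kidney. No event of these genes was listed in liver. With so few exons, the shares of the members cannot be set apart from these backgrounds.

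The largest difference among the exons called was the 27-bp exon of Pclo. In kidney it was included in 1 of 89 junction reads of 1 library and 0 of 78 of the other, for PSI of 0.00837 and 0, where cortex had 0.995 and 0.993. The difference of 0.99 had an adjusted p of 5.20e-111 by limma-moderated quasi-binomial test, and the groups did not overlap. The size of this p depends on how the spread was modelled. With the replicate number as a block in the same limma-moderated test it was 0.00237. Neighbouring exons of Pclo were included in kidney as in cortex: the 126-bp exon (14750479 to 14750604) had 0.985 and 1.00 in kidney, with a difference of 0.00482.

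The 27-bp exon of Nrxn2 was used less in lung, where it had PSI of 0.252 and 0.175 from 48 and 45 reads, than in cortex, with 0.638 and 0.688. The difference of 0.449 had an adjusted p of 2.71e-07 by the same limma-moderated test, and of 0.0515 with the replicate number as a block, which ends the call. In kidney and spleen this exon had 2 to 7 junction reads per library, too few for a value, with 1 and 0 inclusion reads in kidney and 2 and 0 in spleen.

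Rims2 differed between cortex and ESC in both directions. The 66-bp exon was nearly absent in ESC, with PSI of 0.0126 and 0 against 0.714 and 0.706, a difference of 0.703 (adjusted p = 2.01e-09, limma-moderated test). The 242-bp exon was higher in ESC, at 0.871 and 0.969 against 0.184 and 0.148 in cortex, a difference of −0.754 (adjusted p = 8.21e-09). This is the event between the exons ending at 39535981 and starting at 39674940. With the 173-bp exon upstream, the 242-bp exon had 0.980 and 1.00 in ESC against 0.978 and 1.00 in cortex (difference of −0.00139, adjusted p = 0.980 by the same limma-moderated test). With the replicate number as a block, the adjusted p was 0.0668 for the 66-bp exon and 0.0964 for the 242-bp exon. For both exons the cortex and ESC libraries did not overlap. The 180-bp exon (39534838 to 39535017) just missed the threshold at 0.915 and 0.847 in ESC against 0.984 and 0.984 (difference of 0.103, adjusted p = 0.0502). In kidney the same event had 0.429 in both libraries, but from 30 and 15 reads, the second under the minimum of 20.

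The other exons that could be compared showed no difference past the threshold. The 90-bp exon of Nrxn2 had PSI of 0.596 and 0.556 in heart, 0.448 and 0.589 in lung, 0.526 and 0.548 in spleen, and 0.759 and 0.433 in kidney, the 2 kidney libraries lying on either side of cortex. In ESC it had 0.941 and 1.00, above both cortex libraries, but from 33 and 19 reads, the second under the minimum, so it was not tested. The differences of the 4 tested tissues from cortex ran from −0.0842 in kidney to −0.00723 in lung, all with adjusted p over 0.05. The 51-bp exon of Nlgn2 stayed between 0.838 and 0.968 in the 5 tissues other than cortex, and its differences ranged from −0.0533 against heart to 0.0276 against spleen. Against lung it had an adjusted p of 0.0426 (limma-moderated test), with a difference of −0.0460, under the limit of 0.1. Rims1 was testable in ESC for 3 exons, with differences of −0.0483 to 0.0344. Its 90-bp and 183-bp exons had under 20 reads in 1 ESC clone, and in the other their PSI was 0.0769 and 0.0105, from 21 and 48 reads.

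**Figure D3:**
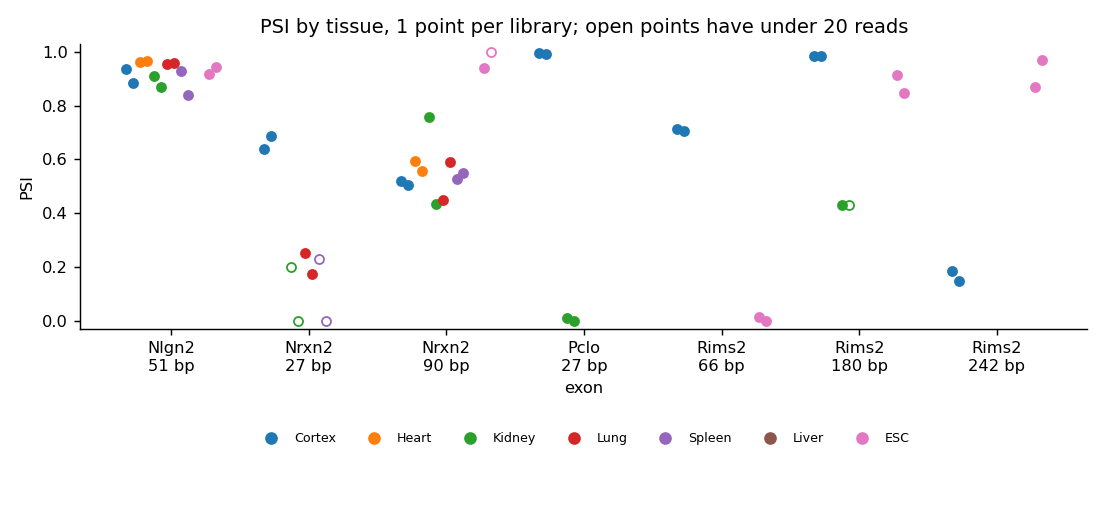
PSI of 7 exons by tissue, 1 point per library and open where an event had under 20 reads. The 27-bp exon of Pclo falls from near 1 in cortex to near 0 in kidney, the 66-bp and 242-bp exons of Rims2 change in opposite directions between cortex and ESC, and the 51-bp exon of Nlgn2 stays above 0.8 in every tissue.

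Exons of the other active zone and release genes were called between tissues as follows, with the share of all events called in brackets. Against kidney 14 of 23 exons tested were called, 10 higher in cortex and 4 lower (14.3%), against ESC 17 of 29, 14 higher and 3 lower (10.9%), and against heart 12 of 19, 8 higher and 4 lower (13.8%). Against lung 9 of 13 were called, 8 higher and 1 lower (14%), against spleen 10 of 17, 7 higher and 3 lower (14.8%), and against liver 6 of 9, 3 higher and 3 lower (16.9%). Several of these exons belong to the same genes, mainly Erc1, Ppfia1 and Unc13b. Of the postsynaptic list, 6 of 16 were called against kidney, 3 of 9 against ESC, 4 of 12 against heart, 3 of 12 against lung, 5 of 11 against spleen and 4 of 11 against liver. Between alleles in cortex, 0 of 37 exons of the active zone list were called and 2 of 17 of the postsynaptic list (4.7% of all events). These were a 66-bp exon of Dlg4, the scaffold PSD-95, with 0.975 and 0.967 on the C57BL/6J allele against 0.832 and 0.853, and a 109-bp exon of Dlgap1 with 0.283 and 0.302 against 0.0335 and 0.0117.

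Both alleles of the F1 share 1 nucleus, so both meet the same cellular factors, and the contrast asks whether the sequence of each allele goes with another PSI. In cortex, 38 events in 24 exons had 20 or more reads of each allele in both libraries, 5 or more reads of the minor form and an allelic PSI within 0.1 of that from all reads. Of these 24, 1 was called between alleles by the limma-moderated quasi-binomial test (4.7% of all events), and 4 had an unadjusted p under 0.05 (24.8% of all events). The median absolute difference was 0.0218, against 0.0200 over all exons tested.

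The exon called was the 72-bp exon of Rims1. The C57BL/6J allele had PSI of 0.434 and 0.419 and the SPRET/EiJ allele 0.564 and 0.617, a difference of −0.164 (adjusted p = 0.0449, limma-moderated test without a block). The alleles did not overlap, and the difference was in the same direction in both libraries, −0.130 and −0.198. With the library as a block, since both alleles come from 1 library, the adjusted p was 0.533, and 0 of 11544 events in all were called. With the block and a prior from well-measured events, a choice made after seeing the data, it was 0.0180.

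Of the 5 tested events over this exon, 4 were lower on the C57BL/6J allele, by −0.167 to −0.110, and 1 was higher: with flanks at 22397563 and 22425871 it had 1.00 and 0.978 against 0.917 and 0.954 (difference of 0.0535, adjusted p = 0.285, limma-moderated test). Against the flanks at 22397563 and 22412211, the 72-bp exon had 0.773 and 0.761 on the C57BL/6J allele and 0.955 and 0.913 on the SPRET/EiJ allele (difference of −0.167, adjusted p = 0.0726 by the same limma-moderated test). The junction that joins 22397563 to 22404444, which skips the 183-bp exon and uses the 72-bp exon, had 81 and 86 C57BL/6J reads against 125 and 160 SPRET/EiJ reads. The junction from 22397563 to 22421741, which skips the 72-bp exon, had 104 and 104 against 83 and 78. The 183-bp exon was included at 0.370 and 0.375 on the C57BL/6J allele and 0.147 and 0.200 on the SPRET/EiJ allele in the event flanked by the 72-bp exon. That event was left out because its allelic PSI was more than 0.1 from the PSI of all reads. The 183-bp exon was tested in other events, with smaller differences and no call. With flanks at 22397563 and 22427462 the difference was 0.0978 (adjusted p = 0.170, limma-moderated test). With flanks at 22397563 and 22421741 it was 0.0757 (adjusted p = 0.353, limma-moderated test). Events over shared junctions are not independent.

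The other exons did not pass the threshold. The 66-bp exon of Rims2 had 0.773 and 0.687 on the C57BL/6J allele and 0.601 and 0.621 on the SPRET/EiJ allele (difference of 0.119, adjusted p = 0.156 by limma-moderated test), the 2 alleles not overlapping. In the event with flanks at 39511374 and 39535872 the direction was the opposite. There the exon had 0.970 and 0.968 against 0.984 and 0.982 (difference of −0.0142, adjusted p = 0.716 by the same limma-moderated test). The 27-bp exon of Nrxn2 had 0.566 and 0.672 against 0.685 and 0.706 (adjusted p = 0.335). The 90-bp exon of Nrxn3 had 0.674 and 0.661 against 0.707 and 0.677, and the 27-bp exon of Pclo 0.997 and 0.998 against 1.00 and 0.988. The 51-bp exon of Nlgn2 was testable in 5 tissues, with differences from 0.00350 in heart to 0.0337 in lung and 0.0102 in cortex, none of them called. Heart, lung and spleen each held that 1 exon and ESC 2 exons, with 0 called and 0 at an unadjusted p under 0.05 (backgrounds of 4.17%, 4.6%, 3.49% and 1.14%). Kidney and liver held none (backgrounds of 5.13% and 3.72%).

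Exons outside the filters carried values that differed between alleles. The 101-bp exon of Nrxn3 had 0.731 and 0.805 on the C57BL/6J allele from 58 and 37 reads and 0.0270 and 0.0667 on the SPRET/EiJ allele from 19 and 16 reads, with PSI from all reads of 0.298 and 0.263. The 69-bp exon of Rims1 had 0.950 and 0.707 against 0.0697 and 0.0871, from 8 and 13 SPRET/EiJ reads. Reads of the SPRET/EiJ allele were under 20 in both cases, and neither was tested. The Nrxn3 exon also failed the filter on agreement, its allelic reads giving a PSI more than 0.1 above that of all reads. Of its 72 and 77 skipping reads, 9 and 4 were assigned to C57BL/6J and 18 and 14 to SPRET/EiJ. Of its 61 and 55 inclusion reads, 49 and 33 were assigned to C57BL/6J and 1 and 2 to SPRET/EiJ. The 90-bp exon of Nrxn2 fell out by the filter on agreement, with 0.387 and 0.395 on one allele and 0.444 and 0.415 on the other, below the 0.520 and 0.504 of all reads.

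**Figure D4:**
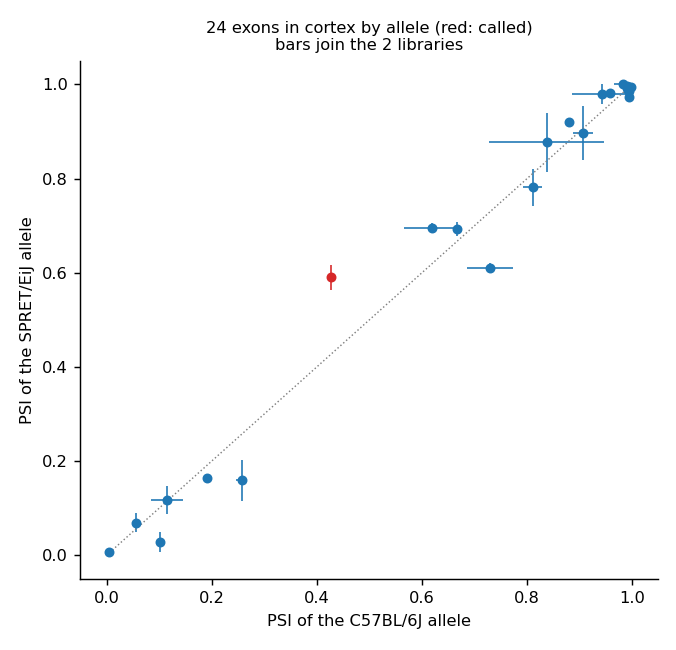
PSI of the SPRET/EiJ allele against that of the C57BL/6J allele for 24 exons in cortex, as means of 2 libraries with bars from one library to the other. Most exons lie near the dotted line of equality, and the 72-bp exon of Rims1 (red) lies above it.

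The share of allelic junction reads from the C57BL/6J allele describes how evenly each gene was transcribed or kept from both alleles. In cortex all 8 genes lay between 39.2% and 55.4% in each library, where all events together stood at 50.6% and 50.3%. Rims1 had 53.5% (95% exact binomial interval 52.3 to 54.7, 3577 C57BL/6J and 3104 SPRET/EiJ reads) and 53.9%, and Nlgn1 48.3% and 39.2% from 269 and 355 reads. The intervals cover counting error only.

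Outside cortex 2 genes were far from equal. Rims1 in ESC had 80.5% (interval 72.7 to 86.8) and 92.1% (interval 89.4 to 94.3) C57BL/6J reads in the 2 clones, where all events stood at 49.7% and 48.9%. These counts came from 7 exons, some of which share junctions, so the intervals are too narrow here too. In ESC the imprinted genes did not show which column is C57BL/6J, which was taken from the column order used for the organs. Nrxn2 in lung had 13.98% (interval 7.66 to 22.7) and 14.6% (interval 8.01 to 23.7), from 13 C57BL/6J reads in each library against 80 and 76 SPRET/EiJ reads, and all events stood at 51.1% and 50.8%. Nlgn2 in lung had 30% and 37.2%. Rims2 in ESC had 57.6% and 60.7%. With 2 libraries a group an exact permutation test cannot pass 0.05, and these differences between tissues were not tested.

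**Figure D5:**
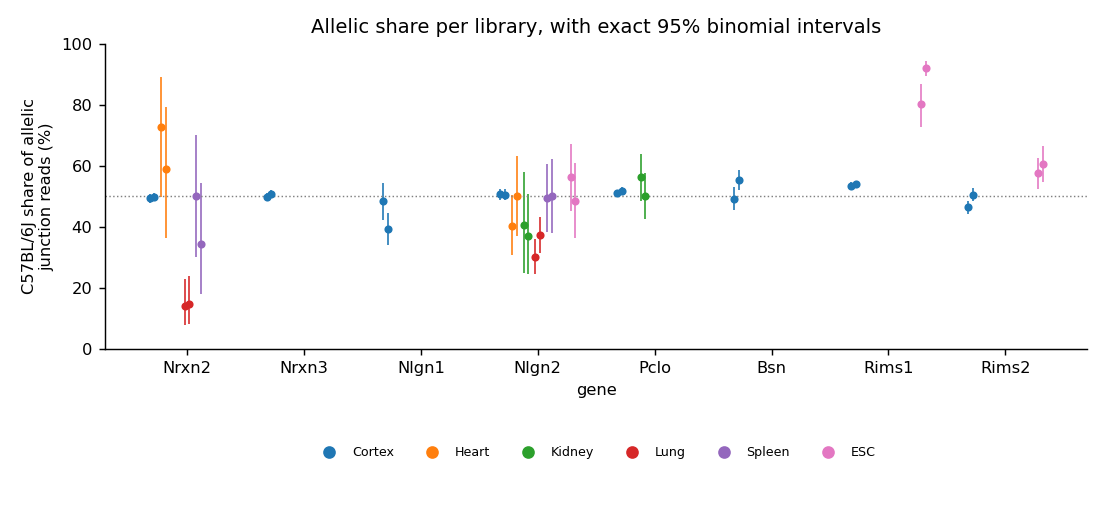
Share of C57BL/6J reads among allelic junction reads by gene and tissue, 1 point per library with 20 or more reads. Bars are exact 95% binomial intervals, too narrow where exons of a gene share junction reads. Cortex lies between 39.2% and 55.4%, the lowest point being 1 library of Nlgn1, Nrxn2 in lung near 14%, and Rims1 in ESC at 80.5% and 92.1%.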

How the data were processed

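RNA-seq of 14 F1 libraries was used, with 4 fibroblast libraries for expression levels only. The authors aligned reads with HISAT2 2.0.1 to mm10 and to a SPRET/EiJ genome, assigned reads to alleles and counted junction reads with rMATS. The deposited junction reads are raw counts. The deposited effective lengths are a score written by rMATS, and the expression values the authors deposited are TPM. The authors' columns of p-values, FDR and inclusion level differences were not used. Autosomal events at 20 or more reads per library (per allele for alleles), with 5 or more reads of the minor form, were tested, in a quasi-binomial model with dispersions of at least 1 moderated by limma 3.58.1. Tests on simulated data found 75.0% to 89.5% of 200 changed events per comparison. The simulated shifts were larger than the limit of 0.1, lay in events of intermediate PSI and carried no correlation by library. These shares therefore do not give the power for differences near 0.1. TPM was tested by limma on log2(TPM + 0.1), for genes of at least 1 TPM in 2 or more libraries. The C57BL/6J column was checked by imprinted genes in the organs, in kidney by Igf2r alone and in liver by Sgce alone. In cortex Igf2r, listed as maternal, stood at 56.2%. The check does not cover ESC, where maternal Meg3 stood at 34.7% and paternal Snrpn and Peg3 at 50.2% and 73.7%. Replicates of alleles correlated by library (r of 0.104 to 0.459), those of tissues, taken from the same 2 animals, showed no pairing by number (−0.053 to 0.056). An exon in a tissue comparison is the tested event with the most cortex reads. Members and lists were chosen with earlier results of these data known. All 8 genes were named, and exons with an intermediate PSI in cortex or a call were described one by one. Alternatives are given in the closing section. Sequences of exons were not used here.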

Additional observations from a re-analysis of the deposited data

Results flagged for a closer look

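The C57BL/6J share of the allelic junction reads of Nrxn2 lay above that of all events in both heart libraries (72.7% and 59.1%, from 22 reads each) and below it in both cortex libraries (49.3% and 49.9%), a difference of −16.3 percentage points between the means of cortex and heart. It lay below it in both lung libraries too, and heart stood 51.6 percentage points above lung. Every library of one tissue thus moved one way and every library of the other the opposite way; the differences were not tested, and the exact intervals of the heart shares run from 36.4% to 89.3%.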

How the results depend on the processing

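Changes of the read minimum, of the minor form, of the prior and of the libraries left the calls of the 27-bp exon of Pclo in kidney standing in each fit that was run. With 50 reads, 0 exons were called against lung, where the 27-bp exon of Nrxn2 was no longer tested. In the replicate block, 0 exons were called against lung (adjusted p = 0.0515), 0 against ESC (adjusted p = 0.0668 and 0.0964 for the 66-bp and 242-bp exons of Rims2) and 0 between alleles in cortex. Organs came from the same 2 animals, but that equal numbers mark the same animal is not stated, and ESC are clones. The block with a prior from well-measured events, added after seeing the data, called all of these. Between alleles in cortex, 0 exons were called with no minimum on the minor form (adjusted p = 0.0679 for the 72-bp exon of Rims1) and 2 without the filter on agreement, the second being the 183-bp exon of Rims1 (difference of 0.199). Over all events the block moved the calls against heart, lung and spleen from 2108, 2352 and 2390 to 1020, 1398 and 1248, and called 0 against ESC and 0 in each allelic comparison. With the added prior the block called 826, 832, 677, 396 and 531 between alleles in cortex, lung, spleen, liver and ESC, against 543, 543, 413, 259 and 177. The added prior alone gave 1311 in place of 2032 against ESC and 23 in place of 177 between ESC alleles, which rose to 372 with no minimum on the minor form. Leaving out 1 library, the exons called against ESC ranged from 2 to 6, with 6 without ESC replicate 1, the clone with fewer Rims1 reads, the 4 further exons being 3 of Rims1 and the 180-bp exon of Rims2, and against kidney from 1 to 2, with 2 without kidney replicate 2, the second being the 180-bp exon of Rims2. The identifiers called higher in cortex by TPM ranged from 5 to 9, with 5 of 5 tested without either cortex library, since the filter then drops genes expressed in cortex alone. Without a replicate, the allelic difference of the 72-bp exon of Rims1 was −0.198 and −0.130. Depth limits the allelic test to exons with a strain difference near the junction, and the tissue test to tissues that express the gene.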
